A study of Mus musculus with 8 samples.

Results

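The peroxisome proliferator-activated receptor gamma coactivators 1 (PGC-1) and the oestrogen-related receptors (ERR) are among the regulators of mitochondrial number in muscle. The set described here has 10 genes, namely Ppargc1a, Ppargc1b, Pprc1, Esrra, Esrrb, Esrrg, Nrf1, Gabpa, Yy1 and Nrip1. It was chosen by gene identity, by taking every array probe whose accession belongs to one of these genes, which gave 15 of 55681 probes for 10 of 20972 named genes. Of the 15 probes, 13 were well above background in all 8 mice and were tested. The other 2 are probes of Nrf1, of which 1 was well above background in 0 of 8 mice and 1 in 1 of 4 mutants and 1 of 4 wild types. The third Nrf1 probe was measured in all 8, so every one of the 10 genes had a tested probe.

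Pus1 encodes pseudouridine synthase 1, the enzyme that makes pseudouridine at several positions of tRNAs, those of mitochondria included. The series set 4 mice homozygous for a mutant Pus1 against 4 wild types, all of strain C57BL/6J with 5 backcross generations behind them and aged 14 to 16 weeks. RNA came from the red part of the gastrocnemius, a calf muscle. Each of 4 arrays held 1 mutant and 1 wild type of the same sex, arrays 1 and 2 with male pairs and arrays 3 and 4 with female pairs, and the mutant carried Cy5 on arrays 1 and 3 and Cy3 on arrays 2 and 4. The labels leave unsaid what was altered within Pus1. Bulk RNA cannot tell fewer cells of a type from less RNA per cell.

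PGC-1 proteins bind no DNA themselves. They dock on ERR receptors, on nuclear respiratory factor 1 (Nrf1), on the GA-binding protein (GABP) and on YY1, and so raise transcription of respiratory chain genes and of Tfam, which packages mitochondrial DNA and activates its transcription. Nrip1 (RIP140) is a corepressor that works on many of the same receptors and lowers oxidative gene expression in muscle. Endurance exercise, cold and low energy charge raise Ppargc1a in muscle.

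The Pus1 probe bore out the genotype labels. Its log2 levels were 6.74, 6.88, 6.60 and 7.12 in mutants 1 to 4, against 8.69, 8.42, 8.72 and 9.13 in wild types 1 to 4. The probe was well above background in 0 of 4 mutants and 4 of 4 wild types. With mutant levels set no lower than the dimmest probe well above background in that sample, the transcript was 3.57-fold lower in mutants, a lower bound under the main processing. Taken at the measured values, which in mutants are not well above background, the fitted log2 change was -1.90 ± 0.10 (SE, n = 4 arrays), with a limma adjusted p of 0.117 over all probes. It ran from -3.87 with the scanner's own ratio to -1.72 with no background subtraction. Probes well above background made up 39.8% to 42.5% of the array in mutants, against 39.7% to 47.3% in wild types. All 8 skeletal muscle markers and all 6 slow fibre markers were well above background in every mouse. The summed level of the slow fibre markers ran from 18.23 to 19.18 in mutants and from 17.95 to 18.83 in wild types, and that of 4 erythroid markers from 14.62 to 18.14 in mutants and from 14.67 to 16.34 in wild types, all on the log2 scale. Of 7 adipocyte markers, 3 were well above background in all 8 mice and Lep in none, and of 4 brown adipocyte markers Ucp1 and Elovl3 were in none.

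The DNA motifs of the set's own binding factors were looked up in its promoters. They were searched on both strands from 250 bases before to 50 bases after each transcript start in RefSeq promoters of build GRCm38.p6. The ERR element TCAAGGTCA lies in 0.423% of all 32851 promoters, the NRF1 site GCGCATGCG in 1.75%, the GABP site CCGGAAGT in 3.89%, and the YY1 site AAGATGGCG in 1.4%. No motif overlaps another where it is printed here. Of the 10 genes, 9 have promoters in the table, 15 in all, and 1 of the 15 held a match, where 7.11% of all promoters held at least 1 of the 4 motifs. It is that of Gabpa, with a YY1 site 68 to 60 bases before the start on the opposite strand. It is shown with the promoters of Tfam and Cycs (cytochrome c), the classic genes downstream of GABP, NRF1 and PGC-1, so that the values below can be read beside the letters. Capitals mark the motif, which is the YY1 site for Gabpa (chr16:84835016-84835104, plus strand), the GABP site for Tfam (chr10:71238045-71238131, minus strand) and the NRF1 site, on the opposite strand, for Cycs (chr6:50566582-50566670, minus strand).
Gabpa: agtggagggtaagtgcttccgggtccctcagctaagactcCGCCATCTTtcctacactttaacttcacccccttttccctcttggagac
Tfam: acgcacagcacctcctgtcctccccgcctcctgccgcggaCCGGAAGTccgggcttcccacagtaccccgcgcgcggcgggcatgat
Cycs: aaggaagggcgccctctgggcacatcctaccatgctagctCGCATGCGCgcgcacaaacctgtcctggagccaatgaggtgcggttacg
A match is a description of these letters and not a measured site.

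None of the 10 genes passed the test of genotype. Across the 13 probes the fitted log2 changes lay between -0.16 and 0.16, 6 above and 7 below 0 (51.1% of all probes were above), with a median of -0.014. The median size of a change was 0.062 on the log2 scale, against 0.077 over all 21146 probes tested. Called probes, at a limma adjusted p under 0.05 (Benjamini-Hochberg over all probes), numbered 0 of 13 against a background of 0% of all probes. At an unadjusted p under 0.05 there were 0 of 13, where 5.46% of all probes stood. No member probe kept its direction on all 4 arrays, against 10.2% of all probes, and for none did the mutant and wild type levels separate without overlap, against 1.3% of all probes. The 95% intervals of the 13 probes run from 0.719-fold to 1.42-fold, which is the precision that 4 arrays gave.

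**Figure D1:**
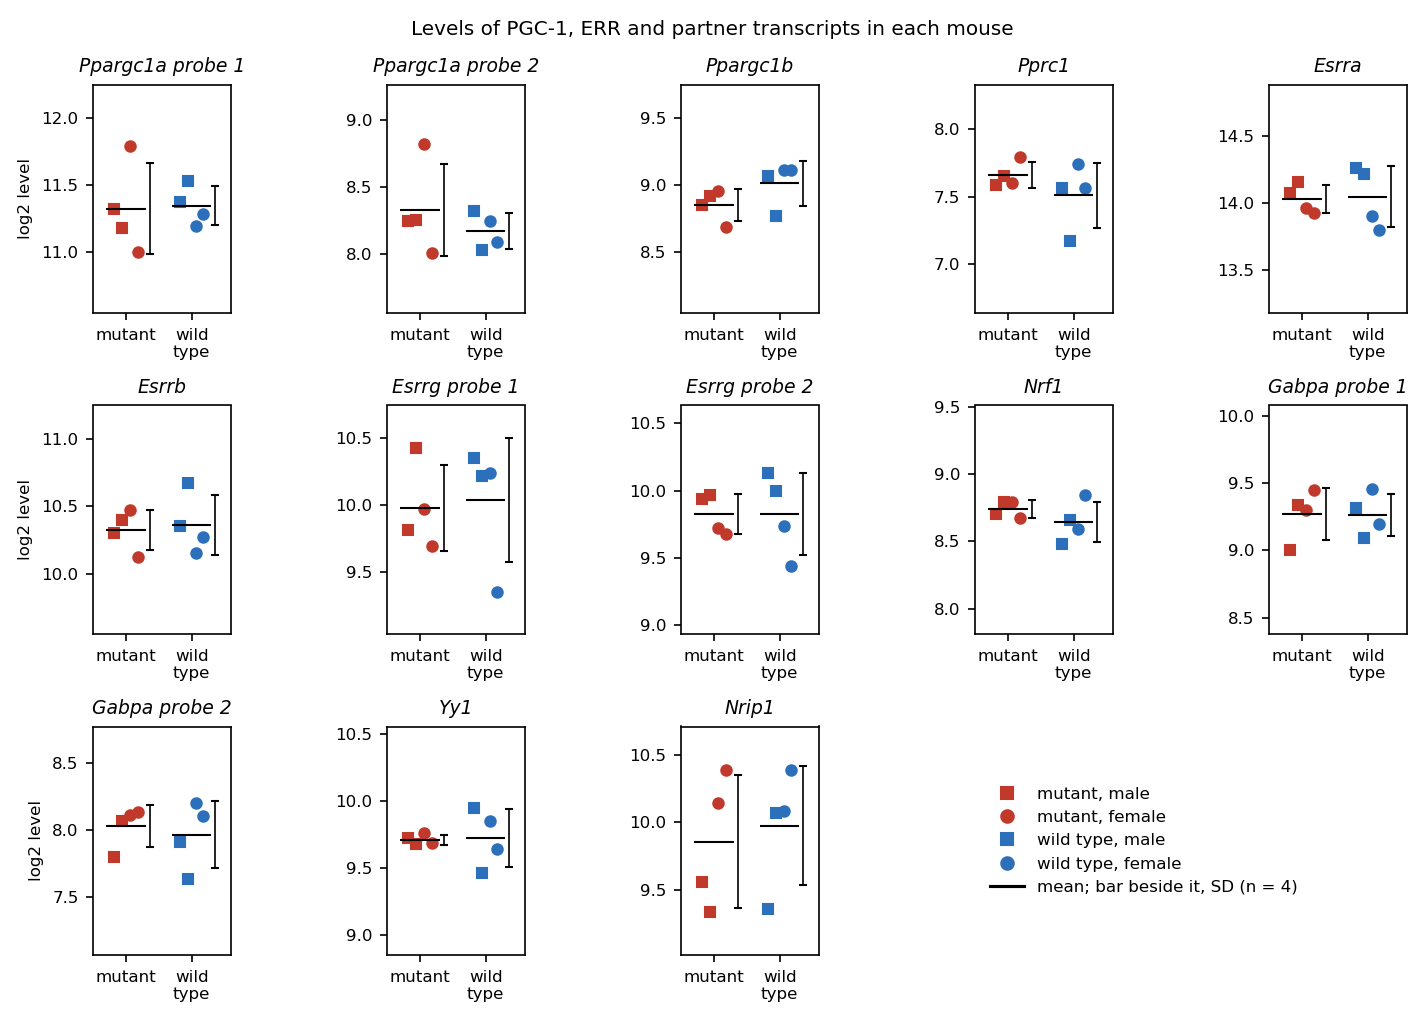
Log2 level of each tested probe in each of the 8 mice, mutants left and wild types right, squares for males and circles for females. Horizontal lines are means and bars beside them SDs (n = 4), every panel spans the same height, and mutants and wild types overlap in all 13 panels.

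The coactivators come first. Ppargc1a, on chromosome 5, encodes PGC-1α, the inducible member of the family. Its brighter probe (A_51_P279038) had log2 levels of 11.32, 11.18, 11.79 and 11.002 in mutants 1 to 4 and 11.38, 11.53, 11.20 and 11.28 in wild types 1 to 4. Uncorrected for the dye, mutant 3 was the highest of the 8 mice and mutant 4 the lowest, with every wild type between them. Mutant 3 carried Cy5 and mutant 4 Cy3, and the fitted dye effect, Cy5 over Cy3, was 0.30. The order and spread of these levels carry that effect. The SD was 0.34 among mutants and 0.14 among wild types, and the log2 change was -0.024 ± 0.12 (SE, n = 4 arrays, 95% interval -0.35 to 0.30, limma adjusted p = 0.969). The second probe (A_55_P2011702) read 8.25, 8.26, 8.82 and 8.01 in mutants 1 to 4 and 8.33, 8.03, 8.25 and 8.09 in wild types 1 to 4. It placed mutant 3 highest and mutant 4 lowest too, with the same dyes and a fitted dye effect of 0.087. Mutant 4 lay just below wild type 2, at 8.01 and 8.03. The log2 change at this probe was 0.16 ± 0.13 (limma adjusted p = 0.781). Over the 8 mice the levels of the 2 probes correlated at r = 0.709. Both probes share 1 accession, and the files used here do not give the exon each one reads.

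Ratios of Ppargc1a were spread most by array 3, which held mutant 3. On arrays 1 to 4 the log2 ratio of mutant over wild type was -0.055, -0.36, 0.60 and -0.28 at the brighter probe and -0.079, 0.23, 0.57 and -0.082 at the second. The largest ratio of both probes was on array 3. Without that array the brighter probe stood at -0.19 and the second at -0.0030, with limma adjusted p of 0.718 and 0.997. With it, the change at the brighter probe also turned positive under other scalings, 0.045 with the scanner's own ratio, 0.015 with median centring and 0.057 in the authors' deposited table.

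Ppargc1b, on chromosome 18, encodes PGC-1β, which drives constitutive mitochondrial gene expression. Its levels were 8.85, 8.92, 8.96 and 8.69 in mutants 1 to 4 and 9.07, 8.77, 9.11 and 9.11 in wild types 1 to 4. Wild types 1, 3 and 4 lay above every mutant, while wild type 2 lay below 3 of them. Its log2 change, -0.16 ± 0.11 (95% interval -0.46 to 0.14, limma adjusted p = 0.7504), was the lowest of the set, with ratios of -0.21, 0.15, -0.15 and -0.42 on arrays 1 to 4. It was -0.016 without array 4 and -0.30 without array 2. Pprc1, on chromosome 19, encodes the PGC-1-related coactivator, a serum-responsive member of the family. It read 7.59, 7.65, 7.60 and 7.80 in mutants 1 to 4 and 7.56, 7.17, 7.74 and 7.56 in wild types 1 to 4. Wild type 2 was low and the other 7 mice were close together, and the log2 change was 0.15 ± 0.08 (95% interval -0.061 to 0.36), whose limma adjusted p of 0.727 was the smallest in the set.

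The 3 receptors of the ERR family are orphan nuclear receptors without a known natural ligand. Esrra (ERRα, chromosome 19) is the main partner of PGC-1α on respiratory genes. Its log2 levels were 14.08, 14.16, 13.96 and 13.93 in mutants 1 to 4, against 14.26, 14.22, 13.90 and 13.80 in wild types 1 to 4. The mutants lay inside the range of the wild types, and the change was -0.016 ± 0.08 (95% interval -0.23 to 0.20, limma adjusted p = 0.969), which turned to 0.010 with median centring and to 0.028 in the authors' deposited table. The array ratios were -0.19 and -0.062 in the male pairs and 0.060 and 0.12 in the female pairs. Such a split, with both male arrays one way and both female arrays the other, was found for 8.65% of all probes, and the test of the difference between the sexes gave -0.22 ± 0.16 (limma adjusted p = 0.645).

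Esrrb (ERRβ, chromosome 12), best known from pluripotent cells, read 10.30, 10.40, 10.47 and 10.12 in mutants 1 to 4 and 10.36, 10.67, 10.15 and 10.27 in wild types 1 to 4. The genotypes overlapped, with a log2 change of -0.040 ± 0.09 (limma adjusted p = 0.927) that was 0.0076 with the scanner's own ratio and 0.018 in the authors' deposited table. Esrrg (ERRγ, chromosome 1) is enriched in oxidative muscle and promotes slow fibre and vascular genes there. Its brighter probe (A_65_P19089) read 9.81, 10.42, 9.97 and 9.70 in mutants 1 to 4 and 10.35, 10.22, 10.24 and 9.35 in wild types 1 to 4. Wild type 4, in Cy5, was the lowest mouse and mutant 2, in Cy3, the highest, with levels uncorrected for the dye. The log2 change was -0.062 ± 0.08 (limma adjusted p = 0.862). The second probe (A_55_P2006499) read 9.94, 9.97, 9.72 and 9.68 in mutants 1 to 4, against 10.13, 9.996, 9.74 and 9.44 in wild types 1 to 4. It also had wild type 4 lowest, with a log2 change of 0.0029 ± 0.08 (limma adjusted p = 0.994) and r = 0.803 with the brighter probe over the 8 mice.

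The DNA-binding factors that carry PGC-1 to respiratory promoters did not pass the test of genotype either. Nrf1 (chromosome 6), the activator of cytochrome c and of many nuclear respiratory genes, read 8.70, 8.80, 8.80 and 8.67 in mutants 1 to 4 and 8.48, 8.66, 8.60 and 8.84 in wild types 1 to 4. Mutants were higher on arrays 1, 2 and 3, by 0.22, 0.14 and 0.20, and lower on array 4, at -0.17, for a log2 change of 0.097 ± 0.08 (95% interval -0.12 to 0.31, limma adjusted p = 0.785). Gabpa (chromosome 16) encodes the DNA-binding subunit of GABP, and its promoter is the one printed above. Its brighter probe (A_52_P152283) read 9.001, 9.33, 9.30 and 9.45 in mutants 1 to 4 and 9.31, 9.09, 9.45 and 9.20 in wild types 1 to 4, a log2 change of 0.0080 ± 0.07 (95% interval -0.17 to 0.19, limma adjusted p = 0.982) that was -0.0024 with the scanner's own ratio. The second (A_51_P364984) read 7.80, 8.07, 8.11 and 8.13 in mutants 1 to 4 and 7.91, 7.64, 8.20 and 8.10 in wild types 1 to 4, a log2 change of 0.066 ± 0.09 (limma adjusted p = 0.871). Both placed mutant 1 lowest of the mutants and wild type 2 lowest of the wild types, and they correlated at r = 0.800 over the 8 mice. Yy1 (chromosome 12), a zinc finger factor through which mTOR signalling and PGC-1α act on mitochondrial genes, read 9.72, 9.68, 9.76 and 9.68 in mutants 1 to 4 and 9.94, 9.46, 9.85 and 9.64 in wild types 1 to 4. All 4 mutants lay within the wild type range, and the log2 change was -0.014 ± 0.07 (95% interval -0.21 to 0.18, limma adjusted p = 0.971), with 0.025 under median centring and 0.0063 in the authors' deposited table.

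Nrip1 (chromosome 16), the corepressor, read 9.56, 9.33, 10.15 and 10.39 in mutants 1 to 4 and 9.35, 10.07, 10.09 and 10.39 in wild types 1 to 4. Its values were spread widely within both genotypes, with an SD of 0.49 among mutants and 0.44 among wild types. The log2 change was -0.12 ± 0.14 (95% interval -0.48 to 0.24, limma adjusted p = 0.840), and array 2 alone, at -0.74, gave it its sign: the ratios of arrays 1, 3 and 4 were 0.20, 0.061 and -0.0014, and without array 2 the change was 0.065.

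**Figure D2:**
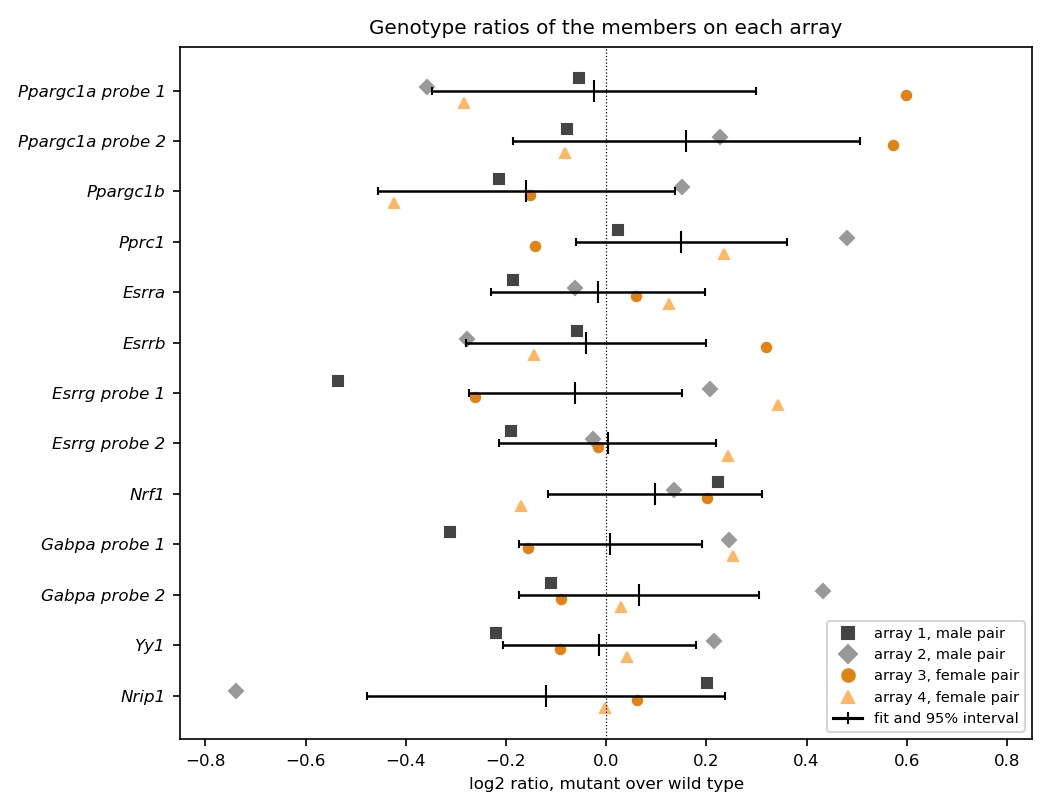
Log2 ratio of mutant over wild type on each of the 4 arrays for the 13 tested probes, with the fitted change (vertical tick) and its 95% interval (n = 4 arrays). All 13 intervals cross 0, and the widest scatter of single arrays is that of the brighter Ppargc1a probe and of Nrip1.

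Some ratios changed sign with the dye. Those of 5 of 13 member probes had 1 sign where the mutant carried Cy5 and the other sign where it carried Cy3, on 4 of 4 arrays, against 30.2% of all probes. The brighter Esrrg probe gave -0.54 and -0.26 on the arrays with the mutant in Cy5 and 0.21 and 0.34 on those with the mutant in Cy3. Its fitted dye effect was -0.34, against a genotype change of -0.062. Yy1 and both Gabpa probes had the same order of signs, and Nrip1 the opposite one. Each sex was measured in both orientations, so the dye term was fitted apart from genotype. The member probes varied somewhat more over arrays than others, with a median SD of the 4 ratios of 0.256 against 0.225 over all probes.

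No member had a genotype effect that differed between the sexes by the test. The male minus female difference of the log2 change ranged over the 13 probes from -0.36 at the brighter Ppargc1a probe (-0.21 in males, 0.16 in females, limma adjusted p = 0.423) to 0.26 at Ppargc1b (-0.032 in males, -0.29 in females, limma adjusted p = 0.648). Called probes were 0 of 13, against 5.91% of all probes. That fit has 1 residual degree of freedom, and the count over all probes was 0 without the dye term.

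The sexes themselves differed in level for 1 member. Nrip1 was lower in males than in females, at 9.58 ± 0.34 and 10.25 ± 0.16 (SD, n = 4 mice each), a log2 difference of -0.67 ± 0.15 (SE). The 4 males and 4 females did not overlap, since the highest male was 10.07 and the lowest female 10.09. The test, chosen after the data had been seen, compared array means, 9.45 and 9.70 for the male arrays against 10.12 and 10.39 for the female arrays (limma adjusted p = 0.0106). Such a difference passed at 1 of 13 member probes and at 7.56% of all probes (3.08% lower in males), and 1 of 13 lies near that background. The call did not hold without array 1 (-0.55, limma adjusted p = 0.0771), without array 4 (-0.54, 0.148) or in the authors' deposited table (-0.91, 0.0517), and it held without array 2 (-0.80, 0.0181) and without array 3 (-0.81, 0.00234). Each sex lay on 2 arrays of its own, so sex and array cannot be told apart other than through the spread between those 2. Nrip1 is abundant in fat, and the log2 of the summed intensity of the adipocyte markers ran from 14.08 to 14.48 in males and from 13.72 to 14.88 in females. That of the slow fibre markers ran from 17.95 to 18.65 in males and from 18.36 to 19.18 in females, and that of the erythroid markers from 14.62 to 15.77 in males and from 14.67 to 18.14 in females. The part of fat, slow fibres or blood in the difference was not tested.

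Other members differed between the sexes by value and did not pass. At an unadjusted p under 0.05 there were 5 of 13 probes, Nrip1 included, against 20.6% of all probes. Esrra was 14.18 ± 0.081 in males and 13.90 ± 0.069 in females (SD, n = 4 mice each), and the sexes did not overlap. The difference was 0.28 ± 0.13 on the log2 scale (SE, limma adjusted p = 0.234). Esrrg differed by 0.39 at the brighter probe (limma adjusted p = 0.235) and by 0.37 at the second (0.126), where the sexes did not overlap. Leaving out each array moved the difference at the brighter Esrrg probe between 0.097, without array 4, and 0.67, without array 3. The second Gabpa probe was lower in males, by -0.29 (limma adjusted p = 0.221), again without overlap, while its brighter probe overlapped. Levels of the sexes did not overlap at 4 of 13 member probes, against 14.5% of all probes.

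**Figure D3:**
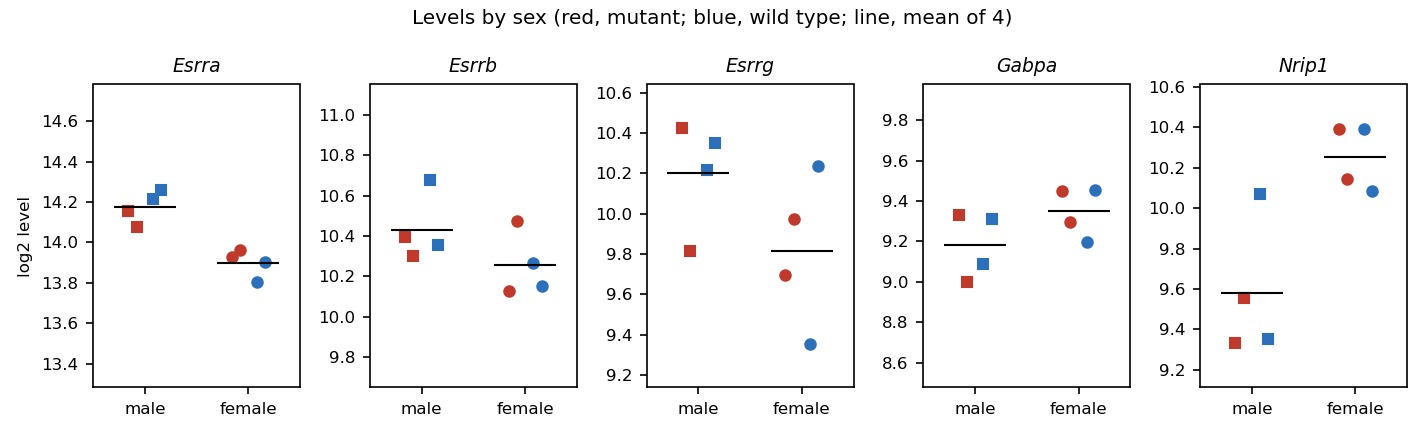
Log2 levels of 5 members by sex at the brighter probe of each, males left and females right, red for mutants and blue for wild types, with the mean of 4 mice as a line. Esrra and Nrip1 separate the sexes, Esrra with males higher and Nrip1 with males lower, and only Nrip1 passed the test (limma adjusted p = 0.0106).

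The likeness of the 8 levels to those of other genes was ranked for Ppargc1a and Esrra over 11452 genes, as a description. Closest to Ppargc1a were Rab5c (r = 0.992), Tulp3 (r = 0.938) and Wdcp (r = 0.938), where the 95th percentile of all genes was 0.645. Closest to Esrra were Clec2d (r = 0.973), Zfp386 (r = 0.972) and Tbc1d2 (r = 0.970), where the 95th percentile was 0.736, and Clec2d fell to 0.849 with median centring. Within the set, Esrrb stood nearest to Ppargc1a (r = 0.734) and Esrrg to Esrra (r = 0.747), and Nrip1 had r = -0.763 with Esrra, where the 5th percentile of all genes was -0.81. The 8 mice share 4 arrays, 2 sexes and 2 dyes, and the levels are not corrected for the dye. These r values carry array, sex and dye alike.

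No transcript of the proteins that modify PGC-1 or share its docking sites passed the genotype test. Of 45 listed partners and modifiers, 43 were tested (all but Camk4 and Nr0b2), 29 higher and 14 lower in mutants by value, with a median log2 change of 0.049, against 0.012 over 11453 genes, of which 54.2% had higher values. Called genes were 0 of 43 against 0% of all genes, and 4 of 43 had an unadjusted p under 0.05, where 5.2% of all genes did. Rnf34, a ubiquitin ligase for PGC-1α, read 11.002, 11.07, 10.66 and 10.99 in mutants 1 to 4 and 10.83, 10.53, 10.6996 and 10.43 in wild types 1 to 4. Mutant 3 lay below wild types 1 and 3, and the log2 change was 0.31 ± 0.07 (limma adjusted p = 0.727), with ratios of 0.17, 0.55, -0.040 and 0.55 on arrays 1 to 4. The fitted dye effect of Rnf34 was -0.24. Rnf34 lies on chromosome 5 within 20 Mb of Pus1, and Ppargc1a lies on the same chromosome outside that window. The labels give 5 backcross generations, and whether DNA around the mutant gene still comes from another strain was not tested. Crtc1, a coactivator of CREB on the Ppargc1a promoter, had 0.19 ± 0.07, higher on 4 of 4 arrays, with a fitted dye effect of 0.15. Its ratios were 0.33 and 0.36 with the mutant in Cy5 and 0.064 and 0.0080 in Cy3. The calcium-dependent kinase gene Camk2b had -0.24 ± 0.07, with a fitted dye effect of 0.24. Its ratios were 0.0057 and 0.0089 with the mutant in Cy5 and -0.43 and -0.52 in Cy3. Crtc1 and Camk2b both had a limma adjusted p of 0.727.

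Genotype effects of 3 of the 43 partners differed between the sexes by the sex term, against 4.71% of all genes. Mef2a, a muscle transcription factor that binds the Ppargc1a promoter, had array ratios of -0.20 and -1.86 in male pairs and 0.80 and -0.64 in female pairs, a male minus female difference of -1.10 ± 0.16 (limma adjusted p = 0.00189). Med1, the Mediator subunit that docks PGC-1α, had -0.43 and -0.98 in male pairs and 0.042 and -0.018 in female pairs (-0.71 ± 0.18, limma adjusted p = 0.0432). Ppara, a fatty acid receptor coactivated by PGC-1α, had -0.67 and -0.41 in male pairs and 0.52 and 0.093 in female pairs (-0.85 ± 0.19, limma adjusted p = 0.0281). The male change was the lower one for all 3, as it was for 1180 of the 1249 probes called over the whole array. Without the dye term none of the 3 passed, with limma adjusted p of 1.00 for Mef2a, 0.714 for Med1 and 0.514 for Ppara. The same held with the scanner's own ratio, at 0.0610, 0.161 and 0.261.

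No gene downstream of the set passed the genotype test. All 43 listed textbook targets of PGC-1, ERR and NRF factors were tested, 15 higher and 28 lower in mutants by value, with a median log2 change of -0.044. Called genes were 0 of 43 against 0% of all genes, and 3 of 43 had an unadjusted p under 0.05, against 5.2%. The median of the list was 0.084, -0.31, 0.12 and -0.11 on arrays 1 to 4, high where the mutant carried Cy5 and low where it carried Cy3. On all 4 arrays 18 of the 43 genes followed the dye in this way, against 15.6% of all genes, and 3 the opposite way, against 14.4%. In the authors' deposited table the list's median was 0.025, where the median of all probes was 0.058.

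Of the targets with the smallest p, Maob, which encodes monoamine oxidase B of the outer mitochondrial membrane, read 10.67, 10.53, 10.81 and 10.83 in mutants 1 to 4 and 10.27, 10.22, 10.68 and 10.24 in wild types 1 to 4. It was higher on 4 of 4 arrays by 0.36 ± 0.09 (limma adjusted p = 0.727), with mutants 1 and 2 below wild type 3. Tomm20, an import receptor of the same membrane, read 12.60, 12.33, 12.54 and 12.52 in mutants 1 to 4 and 12.79, 12.64, 12.72 and 12.80 in wild types 1 to 4. The genotypes did not overlap, and the log2 change was -0.24 ± 0.07 (limma adjusted p = 0.727), lower on 4 of 4 arrays. Idh3a, a subunit of the citric acid cycle's isocitrate dehydrogenase, was lower on 4 of 4 arrays too, at -0.21 ± 0.10, with ratios of -0.12, -0.56, -0.0086 and -0.15 and a value of -0.11 without array 2. The lipid droplet gene Cidea had -0.20 ± 0.07, and its signs followed the dye. Its ratios were 0.20 and 0.21 with the mutant in Cy5 and -0.56 and -0.63 in Cy3, with a fitted dye effect of 0.40. Idh3a and Cidea both had a limma adjusted p of 0.727. Tfam and Cycs, whose promoters are printed above, had log2 changes of 0.036 (95% interval -0.18 to 0.25) and -0.13 (-0.34 to 0.072). Vegfa, the angiogenic factor induced by PGC-1α and ERRα, had ratios of -0.15 and -0.89 in male pairs and 0.62 and -0.021 in female pairs, a male minus female difference of -0.82 ± 0.16 (limma adjusted p = 0.0114) that did not pass without the dye term (0.935). Of the genes with an ERR element in the promoter, 31 were tested, 14 higher and 17 lower in mutants by value. The NRF1 site gave 215 higher and 149 lower, the GABP site 446 and 366 and the YY1 site 189 and 145, where 54.2% of all genes were higher. In each of the 4 groups 0 were called, against 0% of all genes.

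**Figure D4:**
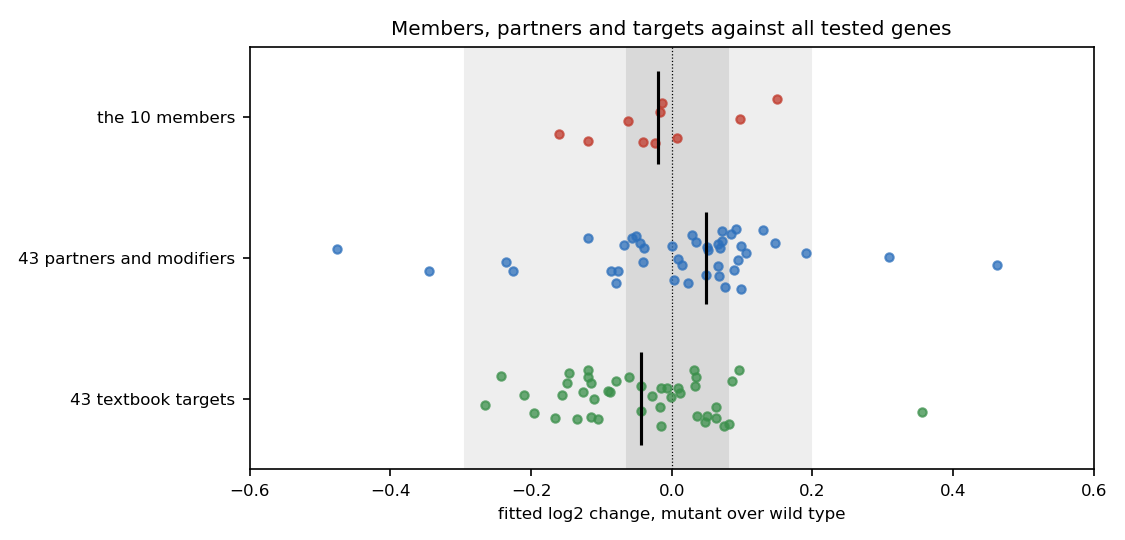
Fitted log2 change of mutant over wild type for the 10 members, the 43 tested partners and modifiers and the 43 textbook targets, 1 point per gene (brightest probe) and the median as a line. Dark and light grey bands run between the quartiles and between the 5th and 95th percentiles of all 11453 genes, -0.063 to 0.081 and -0.29 to 0.20, and the medians of the lists are -0.020, 0.049 and -0.044.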

How the data were processed

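Agilent Feature Extraction 10.7.3.1 made the scanner files, per the submitters' processing notes and the headers. They hold the median intensity of spot and local background per channel, and intensity processed by that program, per the file headers. They also hold the log10 ratio of processed Cy5 over Cy3 and flags for spots above background, saturated or outlying, per the file headers. The deposited table of values is log2-scaled and centred per probe on its median over the 8 samples, as found from its values. Its differences within arrays correlated with the scanner ratio at r = 0.985, 0.983, 0.980 and 0.989, which gave scale and direction, and its column medians were -0.0016, 0.0066, 0.0045 and 0.019 for mutants 1 to 4 and -0.035, -0.062, 0.013 and 0.0036 for wild types 1 to 4.

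In R 4.3.3 with limma 3.58.1, median intensities were background-corrected (normexp, offset 50) and loess-normalized within arrays, control and outlier spots at weight 0. Probes kept had at least 50% of their spots well above background in all 4 samples of a genotype, which left 21152, of which 6 had a value missing on some array through outlier flags and were not tested. Log2 ratios were fitted with a probe-specific dye term (2 residual degrees of freedom, prior 2.82), 2-sided, with Benjamini-Hochberg adjustment over all probes. The sex term left 1 degree of freedom. The fits were tested on simulated data. Levels are log2 intensities of each channel after loess and Aquantile scaling between arrays, with no correction for a probe's dye effect. A gene in a list stands by its brightest probe. Accessions were named through a RefSeq table of GRCm38.p6, which named 27656 of 55681 probes. The scanner files use build mm9, so positions of probes are not given. The array pairs the mice, with the individual number of the labels: the correlation of deviations from the mean of the genotype was r = 0.391, 0.275, 0.0590 and 0.528 for pairs 1 to 4. The labels call the 4 samples of each genotype biological replicates. All 4 arrays shared 1 slide, and their number limits the precision.

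Named are all members, in each list the 4 genes of smallest p and those passing the sex term, and the 3 genes closest to Ppargc1a and Esrra. 1 listed gene that this rule names is not reported here. Members, lists and tests were chosen with earlier results of these data known. The alternatives were other background corrections, scalings, filters and designs and leaving out each array.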

Additional observations from a re-analysis of the deposited data

Results flagged for a closer look

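Of 39 sets of 4 values (levels in mutants, levels in wild types and ratios of each of 13 member probes), 2 held a mouse far from the other 3, about the 1 in 20 that chance gives. The level of Ppargc1b in wild type 2 was 8.77, where the nearest wild type was 9.07. The level at the brighter Esrrg probe in wild type 4 was 9.35, where the nearest wild type was 10.22.

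The genotype effect differed between the sexes, by the test of the difference, for 4 genes around the set and for no member. These were 3 of 43 partners and 1 of 43 textbook targets, where 4.71% of all genes were called. Over all probes, 1180 of the 1249 called had the lower change in males. On the log2 scale, male minus female, the difference was -1.10 for Mef2a, -0.71 for Med1, -0.85 for Ppara and -0.82 for Vegfa. All 4 calls were lost without the dye term, with the scanner's own ratio and with no replicate block, and those of Med1, Ppara and Vegfa also with median centring, and that of Med1 with no filter on dim probes.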

How the results depend on the processing

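The count of member genes changed with genotype was 0 under all 13 alternatives, as were the counts in both lists, and the count by the sex term was 0 under its 6. Over all probes, genotype called 0, but 29 with median centring (18 higher, 11 lower), 3 with no replicate block and 2 with 1 probe per gene, Pus1 among them each time (adjusted p 8.93e-06, 0.0309 and 0.0454), and 0 without each replicate (474 to 2110 probes at an unadjusted p under 0.05). The sex term called 1249, against 482 with the scanner's own ratio, 0 with no dye term, 391 with no replicate block and 1965 with no filter. It could not be fitted without a replicate, since 3 arrays leave no degree of freedom. The level difference of the sexes called 1599, 942 in the authors' table and 1110 to 1508 without each replicate, and among members 1, 0 in the authors' table and 0 to 2 without each replicate.

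Genotype changes near 0 turned sign. Scanner's own ratio: Ppargc1a 0.045, Esrrb 0.0076, Gabpa -0.0024 (brighter probes). Median centring: Ppargc1a 0.015, Esrra 0.010, Yy1 0.025. Authors' table: Ppargc1a 0.057, Esrra 0.028, Esrrb 0.018, Yy1 0.0063. These scalings moved the median of all probes to 0.035, 0.020 and 0.058, from 0.0031. Without each replicate the changes ran from -0.19 to 0.14 and -0.0030 to 0.32 for the probes of Ppargc1a, -0.078 to 0.046 for Esrra, -0.13 to 0.054 for Esrrb, -0.13 to 0.0065 and -0.064 to 0.070 for Esrrg, -0.031 to 0.047 and -0.035 to 0.17 for Gabpa, -0.057 to 0.030 for Yy1 and -0.30 to 0.065 for Nrip1. They kept their sign from -0.30 to -0.016 for Ppargc1b, 0.088 to 0.21 for Pprc1 and 0.020 to 0.17 for Nrf1. The sex term turned to 0.057 for Esrra and 0.047 for Gabpa with median centring, and to 0.019 for Gabpa with the scanner's own ratio. Male minus female levels without each replicate ran from -0.14 to 0.21 and -0.32 to 0.16 for Ppargc1a, -0.14 to 0.0030 for Ppargc1b, -0.14 to 0.00084 for Nrf1 and -0.16 to 0.10 for Yy1. The cause of these shifts was not tested. With no replicate block no member call changed.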
